A study of Mus musculus with 6 samples.

Results

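The 35 genes described here encode the enzymes and transporters of glycolysis, the pentose phosphate pathway and the TCA cycle, together with components and targets of the hypoxia-inducible factor (HIF). They were chosen as a list by function: glucose uptake and glycolysis (15 genes), a kinase of the pyruvate branch (1), the pentose phosphate pathway (4), the TCA cycle with the isocitrate dehydrogenases (9) and the HIF response (6). Of these, 31 had a probe set annotated to a single gene symbol, among 12394 such genes on the array, and 30 were bright enough to be tested, among 7509. Hk3, Gpi1, Eno1 and G6pdx were not analysed here, and Egln3 stayed below the filter on dim probe sets.

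The genes were followed in bone marrow-derived macrophages of mice lacking IκBβ, the NF-κB inhibitor encoded by Nfkbib, and of wild-type mice, both of the C57BL/6J strain. Marrow cells had been differentiated in medium conditioned by L929 cells, and RNA was taken before LPS (0 h) and after 1 h and 5 h in 1 µg/ml LPS, the endotoxin of Gram-negative bacteria. The groups were thus knockout at 0 h, 1 h and 5 h and wild type at 0 h, 1 h and 5 h, with 1 Affymetrix array each and 6 in all. The labels used here state neither the age of the mice, nor any pooling of marrow, nor whether cultures of 1 genotype came from the same mouse.

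Glycolysis splits glucose to pyruvate in the cytosol, and lactate dehydrogenase can turn pyruvate into lactate. The pentose phosphate pathway branches off to give NADPH and ribose, and the TCA cycle oxidises acetyl groups in the mitochondrion. HIF-1 is a transcription factor whose alpha subunit is hydroxylated and degraded when oxygen is plentiful, and macrophages exposed to LPS are known for raised glycolysis and for stabilising this subunit in normal oxygen.

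Nfkbib gave signals of 30.5, 136 and 56.1 at 0 h, 1 h and 5 h on the knockout arrays, against 477, 3330 and 5007 on the wild-type arrays, so the targeted gene was low in knockout at every time. Xist, which is made from the inactive X chromosome, gave 2149 to 5634 in knockout and 52.1 to 80.4 in wild type, while the Y-linked Eif2s3y gave 0.896 to 10.7 in knockout and 570 to 860 in wild type. Genotype and sex therefore cannot be told apart in any difference between the genotypes. All 8 macrophage markers (Adgre1, Csf1r, Cd68, Itgam, Cd14, Lyz2, Fcgr1 and Mertk) were above the array median on all 6 arrays. On no array were the 3 T and NK cell and 2 erythroid markers above it, nor Elane, Mpo and Ngp of the neutrophil, Cd79a and Ms4a1 of the B cell, and Col1a1, Col1a2 and Col3a1 of the fibroblast markers. Cd79b was above it at 0 h in wild type and the fibroblast marker Dcn at 5 h in knockout. The neutrophil markers Camp and S100a8 were above it at 5 h in both genotypes. The summed signal of 5 neutrophil markers was 302, 198 and 1331 at 0 h, 1 h and 5 h in knockout, against 278, 260 and 693 in wild type, with S100a8 at 1135 in knockout and 500 in wild type at 5 h, and its part in the results at 5 h was not tested. Array medians fell with LPS, from 117 at 0 h to 98.7 at 1 h and 65.2 at 5 h in knockout and from 113 to 105 and 70.8 in wild type, although each array had a trimmed mean of 500.2 to 500.3.

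Changes are given on the log2 scale of the deposited signals, estimated with limma from all 6 arrays with genotype and time as additive terms, and calls were made at 0.05 after Benjamini-Hochberg adjustment of the p-values of all 7509 genes. Such an estimate is shared by the genotypes and its error (SE) rests on 2 residual degrees of freedom, so it covers the spread between these arrays and not that between animals. A change within a genotype or a difference at a single time compares 1 array with 1 other and carries no test. In RNA from whole cultures, fewer cells of a type and less RNA per cell cannot be told apart.

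**Figure D1:**
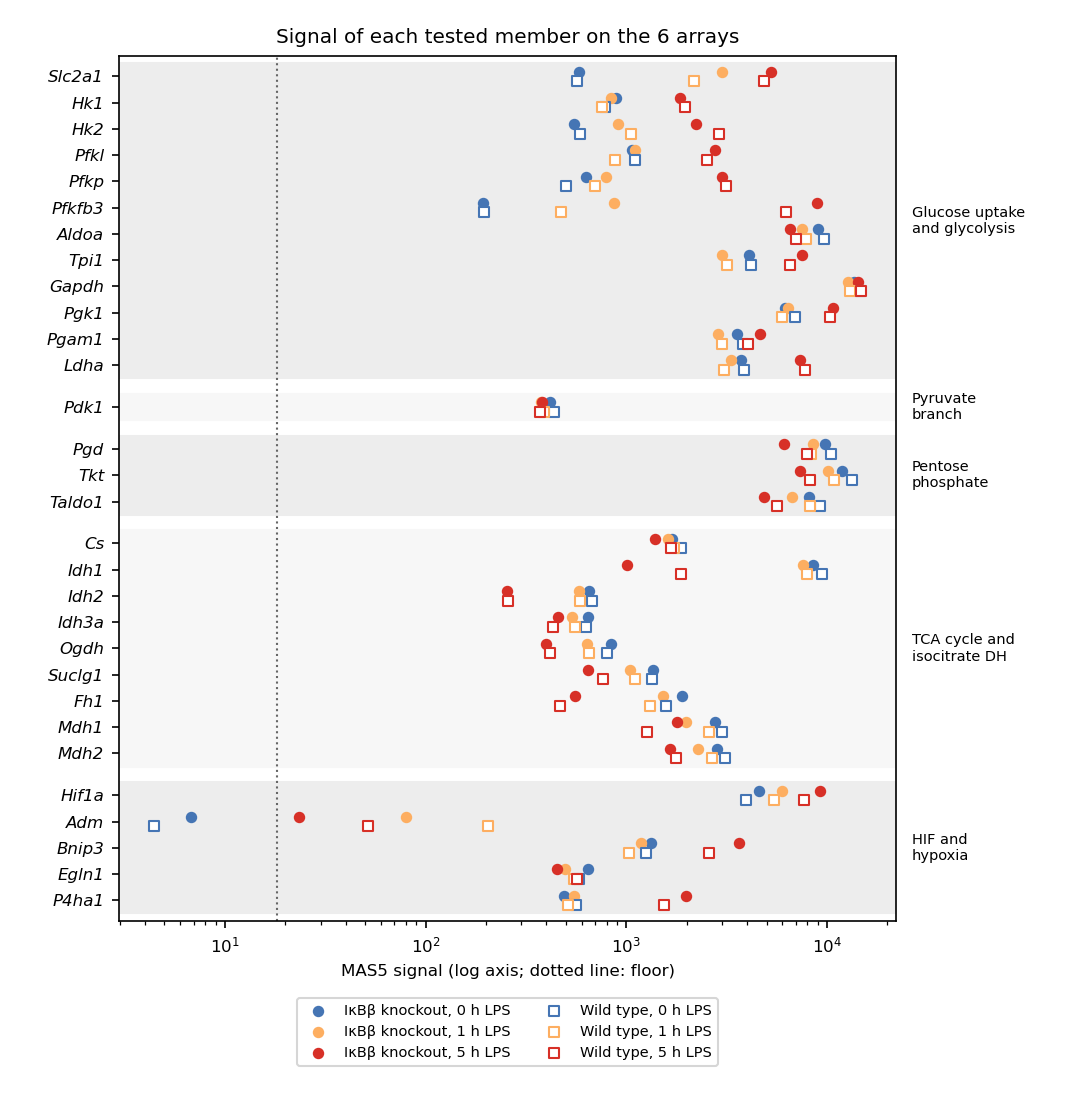
MAS5 signal (log axis) of the 30 tested genes on the 6 arrays, by role; filled circles are knockout and open squares wild type, blue is 0 h, orange 1 h and red 5 h, and the dotted line is the floor of 18.2. At the deposited scale, red points lie to the right of blue ones for 11 of the 12 glycolysis genes in both genotypes. They lie to the left for all 9 genes of the TCA cycle and isocitrate dehydrogenases, also in both genotypes.

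After 1 h of LPS, 4 of the 30 genes were called higher and 0 lower: the glucose transporter Slc2a1, the hexokinase Hk2, the glycolytic regulator Pfkfb3 and the peptide hormone gene Adm. Adm passed the filter through the wild-type 1 h array alone, so its call was favoured by the filter and is given as a description; the other 29 genes were above the median on all 6 arrays. Over all genes tested, 5.42% were called higher and 5.91% lower. The median change of the 30 was −0.22, beside −0.18 for all genes. After 5 h, 12 of the 30 were called higher and 12 lower, beside 19.5% and 54.0% of all genes, and their median was −0.07 beside −0.57. At 5 h the rises comprised 9 of 12 glycolysis and 3 of 5 HIF genes. The falls comprised 8 of 9 genes of the TCA cycle and isocitrate dehydrogenases, 3 of 3 pentose phosphate genes and Aldoa. The 12 rises were called under each of 3 scalings of the arrays (as deposited, quantile normalized and median centred), whereas after median centring Idh1, Idh2 and Fh1 were the 3 genes still called lower.

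**Figure D2:**
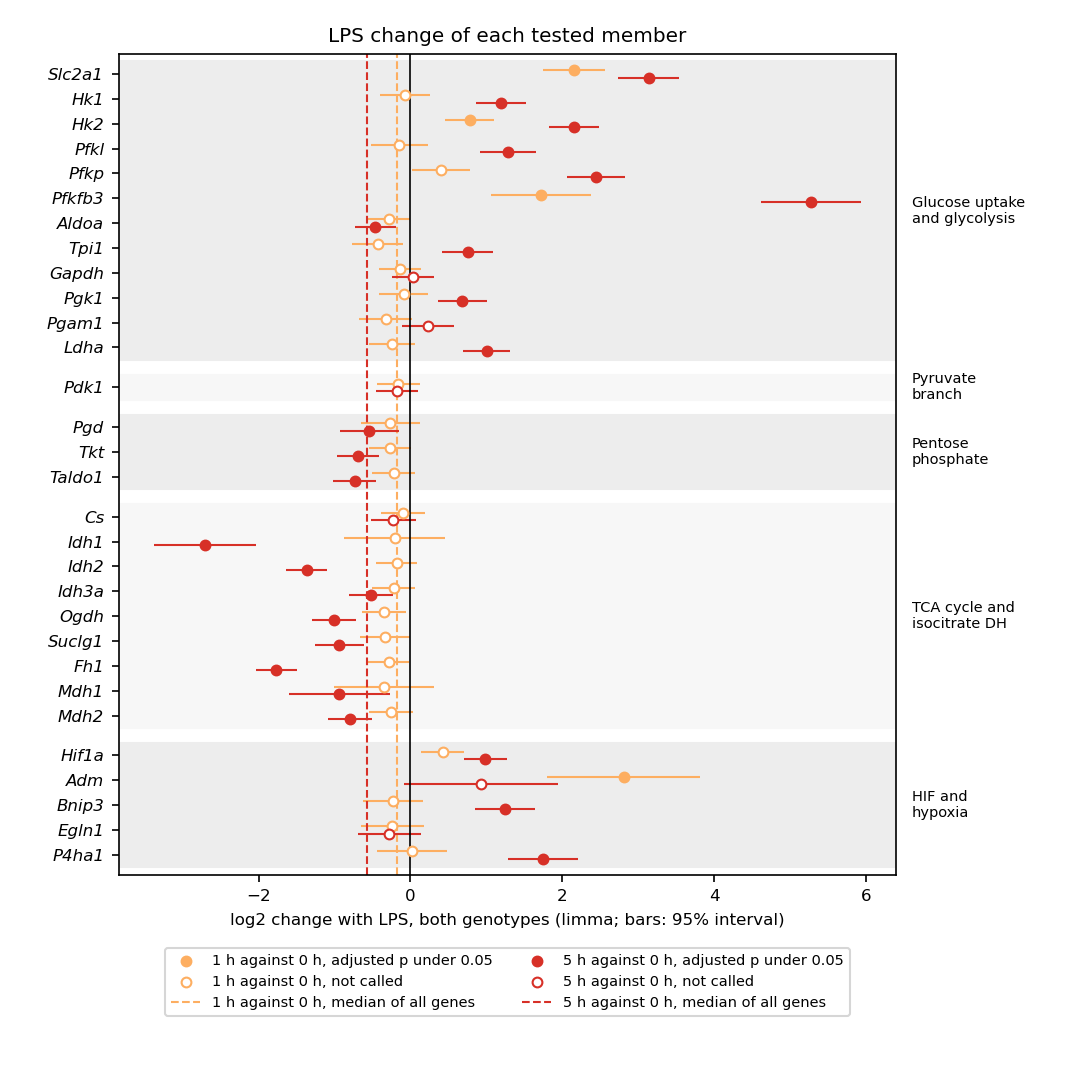
Log2 change at 1 h (orange) and 5 h (red) of LPS against 0 h for the 30 tested genes at the deposited scale, as limma estimates over both genotypes with 95% intervals; filled points were called and dashed lines mark the median of all 7509 genes. At 5 h the 12 glycolysis genes all lie above the median of all genes, −0.57. Below it lie 7 of the 9 genes of the TCA cycle and isocitrate dehydrogenases.

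Slc2a1 encodes GLUT1, the transporter that admits glucose to most cells. It read 581, 2989 and 5275 at 0 h, 1 h and 5 h in knockout, against 567, 2174 and 4837 in wild type. Both genotypes were low before LPS and highest at 5 h, and the 0 h signals lay below all 4 later ones. The change was 2.15 at 1 h (SE 0.15, limma adjusted p = 0.0054) and 3.14 at 5 h (SE 0.15, limma adjusted p = 0.000386), an 8.80-fold rise. Its other probe sets gave 1.99 and 2.04 at 1 h and 3.08 and 3.04 at 5 h.

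Hexokinases trap glucose as glucose 6-phosphate. Hk2, the inducible isozyme, read 552, 905 and 2226 in knockout over 0 h, 1 h and 5 h, against 588, 1053 and 2883 in wild type. It was called higher at 1 h (0.78, SE 0.12, limma adjusted p = 0.0332) and rose 4.45-fold at 5 h (2.15, SE 0.12, limma adjusted p = 0.000472). Hk1, the isozyme of most tissues, stood at −0.07 at 1 h (SE 0.12, limma adjusted p = 0.714) and rose by 1.19 at 5 h (SE 0.12, limma adjusted p = 0.00167). Its signals were 887, 835 and 1849 in knockout and 788, 761 and 1967 in wild type, with the 5 h arrays apart from the other 4.

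Phosphofructokinase commits sugar to glycolysis, and the enzyme encoded by Pfkfb3 makes its activator, fructose 2,6-bisphosphate. Pfkfb3 had the largest fitted change at 5 h of the 30 genes: it read 193, 868 and 8972 in knockout over 0 h, 1 h and 5 h, against 195, 471 and 6256 in wild type. At 0 h the arrays differed by 0.01 on the log2 scale, and after LPS the knockout signals were the higher ones. The rise was 1.72 at 1 h (SE 0.24, limma adjusted p = 0.0273) and 5.27 at 5 h (SE 0.24, limma adjusted p = 0.000379), or 38.6-fold, and the second probe set gave 0.84 and 4.69. That second set read 115 in knockout and 94.6 in wild type at 0 h, so on it knockout was the higher before LPS too. The platelet-type subunit Pfkp went up by 2.44 (SE 0.14, limma adjusted p = 0.000493) and the liver-type subunit Pfkl by 1.28 (SE 0.14, limma adjusted p = 0.00189) at 5 h, and neither was called at 1 h (0.40 and −0.15).

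Among the lower steps of glycolysis, 3 genes were called higher at 5 h and none at 1 h. Ldha, which makes lactate from pyruvate, read 3727, 3333 and 7377 in knockout over 0 h, 1 h and 5 h, against 3840, 3063 and 7770 in wild type, and rose by 1.00 at 5 h (SE 0.11, limma adjusted p = 0.00215). The triose phosphate isomerase gene Tpi1 rose by 0.75 (limma adjusted p = 0.00649) and the phosphoglycerate kinase gene Pgk1 by 0.68 (limma adjusted p = 0.00768). Without the knockout 0 h array these became 0.71 (limma adjusted p = 0.0544) and 0.57 (limma adjusted p = 0.0721), so that neither was called. The probe sets of Pgk1 disagreed in size: the others gave 0.62 and 2.49.

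Aldoa, the aldolase gene, was the 1 glycolysis gene called lower at 5 h at the deposited scale (−0.46, SE 0.10, limma adjusted p = 0.0144), but stood at 0.30 after median centring (limma adjusted p = 0.104). It read 9039, 7521 and 6559 in knockout and 9674, 7874 and 7009 in wild type, and its call was lost without the knockout or the wild-type 0 h array (limma adjusted p = 0.108 and 0.114). Gapdh, measured by control probe sets because no other set has it as the single symbol, stood at 0.04 at 5 h (limma adjusted p = 0.746) and read 12660 to 14230 in knockout and 12990 to 14790 in wild type. The phosphoglycerate mutase gene Pgam1 stood at 0.23 (limma adjusted p = 0.171). After median centring both were called higher, at 0.80 and 0.99, and after quantile normalization they stood at −0.01 and −0.02. The median over the 12 glycolysis genes was 1.10 at the deposited scale, 1.86 when median centred and 0.98 when quantile normalized.

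The promoters of the genes that changed most in each role are printed so that genes that rose and genes that fell can be set side by side, and because the DNA core that HIF-1 recognises is short enough to be read in them. They come from RefSeq on GRCm38.p6, 5′ to 3′, and run from 250 bases before the annotated start to 50 after it, 300 in all. Capitals mark the core, searched as ACGTG and GCGTG with their complements CACGT and CACGC on the opposite strand; the core lies within the E-box CACGTG of other factors. The Slc2a1 window is chr4:119108495-119108794 (plus strand) and its matches begin 61 and 36 bases before the start. The Pfkfb3 window is chr2:11553880-11554179 (minus strand), with a match beginning 60 bases before it.
Slc2a1: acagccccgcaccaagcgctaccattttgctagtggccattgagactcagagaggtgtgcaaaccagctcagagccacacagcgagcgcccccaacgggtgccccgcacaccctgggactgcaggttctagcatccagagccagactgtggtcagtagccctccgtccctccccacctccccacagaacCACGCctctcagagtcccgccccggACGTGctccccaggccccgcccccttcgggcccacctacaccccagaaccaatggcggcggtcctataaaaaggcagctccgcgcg
Pfkfb3: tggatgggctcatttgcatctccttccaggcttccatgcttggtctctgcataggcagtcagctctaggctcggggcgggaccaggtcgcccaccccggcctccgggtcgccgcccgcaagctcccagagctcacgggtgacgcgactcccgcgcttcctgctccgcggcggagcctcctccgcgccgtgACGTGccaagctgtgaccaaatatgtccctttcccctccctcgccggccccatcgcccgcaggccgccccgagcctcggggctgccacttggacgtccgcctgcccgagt

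Of 34 of the listed genes with a promoter in the table, 29 (85.3%) held the core, beside 43.8% of all 27024 promoters of that length and 64.8% of those of 6192 tested genes. Among genes called at 5 h it was present in 10 of the 12 that rose and in 10 of the 11 that fell and have a promoter in the table, so its presence did not separate the directions. The E-box was found in Ldha, Hif1a and Bnip3 (8.82%, beside 7.24% of all promoters and 10.8% of those of tested genes), in 3 of the 12 that rose and 0 of the 11 that fell. The NF-κB consensus, searched on both strands, was found in Hk1, Pgk1, Idh2 and P4ha1 (11.8%, beside 8.19% of all promoters and 10.3% of those of tested genes), in 3 of the 12 and 1 of the 11. Such matches describe letters in a window and do not show binding.

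Pdk1 encodes a kinase that switches off pyruvate dehydrogenase and so withholds pyruvate from the TCA cycle. It read 417, 375 and 381 in knockout over 0 h, 1 h and 5 h, against 438, 389 and 374 in wild type, a narrow range on all 6 arrays. Its change at 5 h was −0.18 (SE 0.10, limma adjusted p = 0.18) at the deposited scale, 0.29 after quantile normalization (limma adjusted p = 0.0699) and 0.58 after median centring (limma adjusted p = 0.0156), so its direction follows the scaling.

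All 3 pentose phosphate genes measured were lower at 5 h at the deposited scale. They encode 6-phosphogluconate dehydrogenase (Pgd), which yields NADPH, and transketolase (Tkt) and transaldolase (Taldo1), which exchange carbon units between sugars. Pgd read 9835, 8518 and 6114 in knockout, against 10450, 8364 and 7955 in wild type, and Taldo1 read 8122, 6691 and 4832 in knockout, against 9208, 8235 and 5616 in wild type. The 5 h signal was the lowest of its genotype for each of the 3. The falls were 0.54 for Pgd (limma adjusted p = 0.0265), 0.69 for Tkt (limma adjusted p = 0.00459) and 0.73 for Taldo1 (limma adjusted p = 0.00413). They lay close to the median change of all genes, −0.57, and 54.0% of all genes were called lower. After quantile normalization the 3 pentose phosphate genes were again called lower, at −0.76, −0.82 and −0.99, beside 3059 of all 7509 genes (median −0.22). After median centring they stood at 0.22, 0.08 and 0.03, beside a median of 0.19 for all genes, and none was called. The call of Pgd was also lost without the knockout 0 h, knockout 5 h or wild-type 0 h array (limma adjusted p = 0.145, 0.0785 and 0.101) and when the filter was dropped (0.0747). The Taldo1 window, the largest change of this role, is chr7:141391910-141392209 (plus strand), with a match beginning 80 bases before the start and another 24 bases after it.
Taldo1: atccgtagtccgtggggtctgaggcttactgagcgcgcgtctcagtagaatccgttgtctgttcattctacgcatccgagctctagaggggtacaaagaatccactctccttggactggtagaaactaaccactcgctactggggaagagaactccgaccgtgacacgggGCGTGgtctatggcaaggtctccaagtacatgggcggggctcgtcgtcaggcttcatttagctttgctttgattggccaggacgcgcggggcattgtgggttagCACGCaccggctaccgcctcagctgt

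All 9 genes of the TCA cycle and isocitrate dehydrogenases had their lowest deposited signal at 5 h in both genotypes, and 8 were called lower there, with a median of −0.94 beside −0.57 for all genes. After quantile normalization 7 were called lower (median −0.88), beside 3059 of all 7509 genes (median −0.22). After median centring 3 were called lower and 1, Cs, higher (median −0.18), beside 2042 lower and 2925 higher of all 7509 genes (median 0.19). At 1 h none of the 9 was called, and their changes ran from −0.35 to −0.10.

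Idh1, the cytosolic NADP-dependent isocitrate dehydrogenase, fell most. It read 8568, 7583 and 1010 in knockout over 0 h, 1 h and 5 h, against 9398, 7947 and 1872 in wild type, so both 5 h arrays stood far below the other 4. The change was −2.71 at 5 h (SE 0.25, limma adjusted p = 0.00126), −2.78 after quantile normalization and −1.94 after median centring, and the second probe set gave −2.18. The Idh1 window is chr1:65186430-65186729 (minus strand), with a match beginning 42 bases after the start.
Idh1: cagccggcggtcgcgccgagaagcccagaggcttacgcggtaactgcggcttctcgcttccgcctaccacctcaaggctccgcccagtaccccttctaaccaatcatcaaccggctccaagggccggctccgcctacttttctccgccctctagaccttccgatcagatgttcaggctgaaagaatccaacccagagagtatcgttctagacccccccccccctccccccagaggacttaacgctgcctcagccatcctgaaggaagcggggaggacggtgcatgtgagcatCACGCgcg

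Fh1 encodes fumarase, which hydrates fumarate to malate. It read 1897, 1530 and 556 in knockout, against 1580, 1312 and 465 in wild type, and fell by 1.77 at 5 h (SE 0.10, limma adjusted p = 0.000479). Idh2, the mitochondrial NADP-dependent isozyme, read 651, 579 and 255 in knockout, against 673, 587 and 258 in wild type, and fell by 1.37 (SE 0.10, limma adjusted p = 0.000757). The 5 h signals of both genes lay below every earlier signal. After median centring the changes were −1.01 for Fh1 (limma adjusted p = 0.0018) and −0.61 for Idh2 (limma adjusted p = 0.0122).

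Idh3a, a catalytic subunit gene of the NAD-dependent enzyme of the cycle proper, fell by 0.52 at 5 h (limma adjusted p = 0.0118), stood at −0.14 after quantile normalization (limma adjusted p = 0.304) and at 0.24 after median centring (limma adjusted p = 0.174). Its difference from the NADP-dependent isozymes was not tested. Ogdh, a subunit of the 2-oxoglutarate dehydrogenase complex, fell by 1.01 (limma adjusted p = 0.00178) and Suclg1, a subunit of succinyl-CoA ligase, by 0.94 (limma adjusted p = 0.00302). The malate dehydrogenase genes Mdh1 (cytosolic) and Mdh2 (mitochondrial) fell by 0.94 (limma adjusted p = 0.0249) and 0.79 (limma adjusted p = 0.00351). After median centring these 4 stood at −0.25, −0.18, −0.17 and −0.03 and none was called. The citrate synthase gene Cs read 1689, 1606 and 1392 in knockout, against 1880, 1726 and 1672 in wild type, and was not called (−0.22, limma adjusted p = 0.125), but stood at 0.54 after median centring (limma adjusted p = 0.0176).

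Some of these calls rested on single arrays. The call of Idh3a was lost without the knockout 0 h or the wild-type 0 h array (limma adjusted p = 0.095 and 0.0873), and that of Mdh1 without the knockout 0 h, wild-type 0 h or wild-type 5 h array (limma adjusted p = 0.07, 0.103 and 0.0527) and when the filter was dropped (0.109). The probe sets of Mdh1 that lay above the floor gave −0.94, −1.38 and −0.73 at 5 h, and those of Cs −0.22, 0.08 and −0.38.

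**Figure D3:**
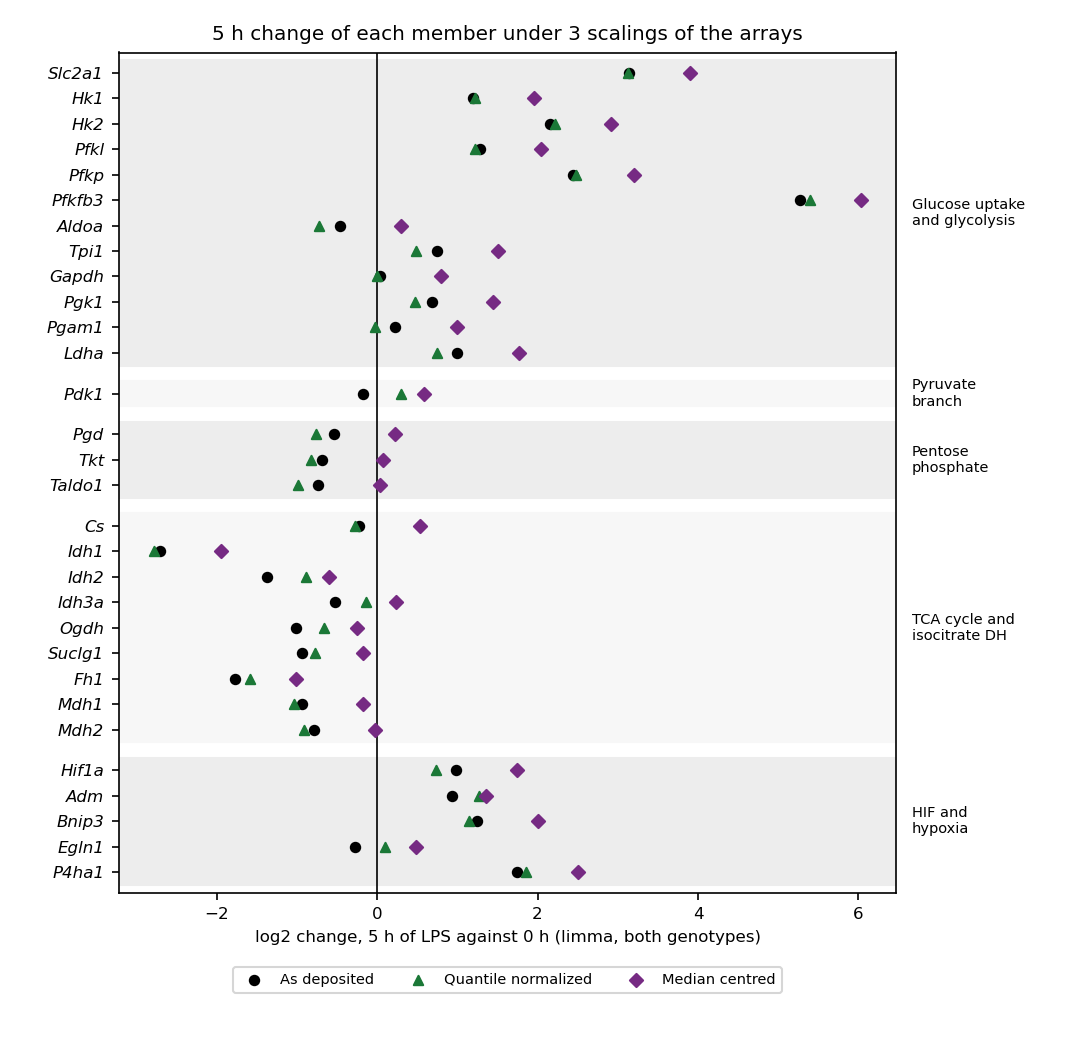
Log2 change at 5 h against 0 h (limma, both genotypes) of the 30 tested genes with the arrays as deposited (black circles), quantile normalized (green triangles) and median centred (purple diamonds). Median centring moved every gene to the right, which left the 12 rises on their side of 0 and took Aldoa, Pdk1, Cs, Idh3a, Egln1 and the 3 pentose phosphate genes across it, while Idh1, Idh2 and Fh1 stayed well to the left.

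Hif1a encodes the oxygen-regulated alpha subunit of HIF-1. It read 4573, 5979 and 9191 in knockout over 0 h, 1 h and 5 h, against 3959, 5441 and 7707 in wild type, and its signals climbed at each step in both genotypes. The change was 0.42 at 1 h (SE 0.10, limma adjusted p = 0.0772; 0.52 and adjusted p = 0.0468 as the mean of its probe sets) and 0.98 at 5 h (SE 0.10, limma adjusted p = 0.00182). The other bright probe sets gave 1.20 and 1.82 at 5 h.

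P4ha1 and Bnip3, known targets of HIF, were called higher at 5 h and not at 1 h. P4ha1, a collagen prolyl hydroxylase subunit, read 489, 552 and 1982 in knockout, against 561, 511 and 1548 in wild type, and rose by 1.74 at 5 h (SE 0.17, limma adjusted p = 0.00148) after 0.02 at 1 h. Bnip3, which takes part in mitophagy, read 1334, 1179 and 3657 in knockout, against 1257, 1032 and 2573 in wild type, and rose by 1.24 at 5 h (SE 0.15, limma adjusted p = 0.00246) after −0.23 at 1 h. For both genes the 5 h arrays stood apart from the earlier 4.

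The HIF prolyl hydroxylases, which mark the alpha subunit for degradation, were not called higher at the deposited scale. Egln1 stood at −0.28 at 5 h (limma adjusted p = 0.17), at 0.09 after quantile normalization and at 0.48 after median centring (limma adjusted p = 0.0319), and its second probe set gave 0.39. Egln3 read 88.4, 69.9 and 42.3 in knockout, against 98.9, 68.5 and 29.6 in wild type. In a fit without the filter its change at 5 h was −1.40 (limma adjusted p = 0.0324).

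Adm encodes adrenomedullin, a vasodilator peptide, and had a course of its own. It read 6.77, 79.7 and 23.5 in knockout over 0 h, 1 h and 5 h, against 4.44, 204 and 51.4 in wild type, with both 0 h signals under the floor of 18.2. The 1 h array was the highest of each genotype. The wild-type 1 h signal was the 1 of the 6 above its array's median (204 against 105), so the values at 1 h rest on the array that let Adm into the fit. Against the floor the rise at 1 h was at least 4.37-fold in knockout and at least 11.2-fold in wild type, and at 5 h at least 1.29-fold in knockout and at least 2.82-fold in wild type. Adm was called higher at 1 h (limma adjusted p = 0.0232), was not called at 5 h against 0 h (limma adjusted p = 0.0816; called with the floor at the 10th percentile, under the other 2 scalings and without the knockout 0 h array) and was lower at 5 h than at 1 h (−1.88, SE 0.37, limma adjusted p = 0.0135). That fall lost its call when the filter was dropped and when the 5 h array of either genotype or the 1 h array of wild type was omitted (limma adjusted p from 0.0541 to 0.0888). It was the 1 HIF gene of the 5 called lower between 1 h and 5 h.

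The Adm window is chr7:110627407-110627706 (plus strand), with matches beginning 90 and 54 bases before the start. The P4ha1 window is chr10:59323046-59323345 (plus strand), with matches beginning 163, 126 and 16 bases before it. The 6 printed windows thus hold 1 to 3 matches each, in the genes that rose and in those that fell.
Adm: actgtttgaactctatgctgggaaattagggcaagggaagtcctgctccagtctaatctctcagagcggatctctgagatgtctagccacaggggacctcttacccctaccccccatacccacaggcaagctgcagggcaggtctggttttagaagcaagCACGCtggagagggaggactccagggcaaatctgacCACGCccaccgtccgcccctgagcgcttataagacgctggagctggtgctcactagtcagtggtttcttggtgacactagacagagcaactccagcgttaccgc
P4ha1: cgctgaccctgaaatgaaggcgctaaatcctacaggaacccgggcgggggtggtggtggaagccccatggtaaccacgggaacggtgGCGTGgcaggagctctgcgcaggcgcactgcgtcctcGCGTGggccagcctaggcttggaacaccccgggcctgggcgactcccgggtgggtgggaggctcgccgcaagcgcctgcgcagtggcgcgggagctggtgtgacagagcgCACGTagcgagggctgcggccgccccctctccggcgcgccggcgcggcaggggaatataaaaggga

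The calls at 1 h depended on the filter and on single arrays. Slc2a1, Hk2, Pfkfb3 and Adm were called under all 3 scalings, but none was called when the filter was dropped and 12394 genes were tested (limma adjusted p from 0.0548 for Slc2a1 to 0.112 for Pfkfb3). None was called without the knockout 1 h array, 1 without the wild-type 1 h array (Slc2a1), 3 without the wild-type 0 h array, and 2 without the knockout 0 h, knockout 5 h or wild-type 5 h array. Between 1 h and 5 h, 13 of the 30 genes were called higher and 9 lower, beside 18.5% and 45.5% of all genes. The 13 were the 12 that rose against 0 h and Pgam1 (0.56, limma adjusted p = 0.0205; from 0.0523 to 0.127 after quantile normalization, with no filter and without the 1 h array of either genotype or the knockout 5 h array). Of the 12, Hif1a was not called without the 1 h array of either genotype (limma adjusted p = 0.0872 for knockout and 0.062 for wild type), nor Pgk1 without that of wild type (0.0569). The 9 lower were 4 after median centring and also when the knockout 1 h array was omitted, and 3 when that of wild type was.

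**Figure D4:**
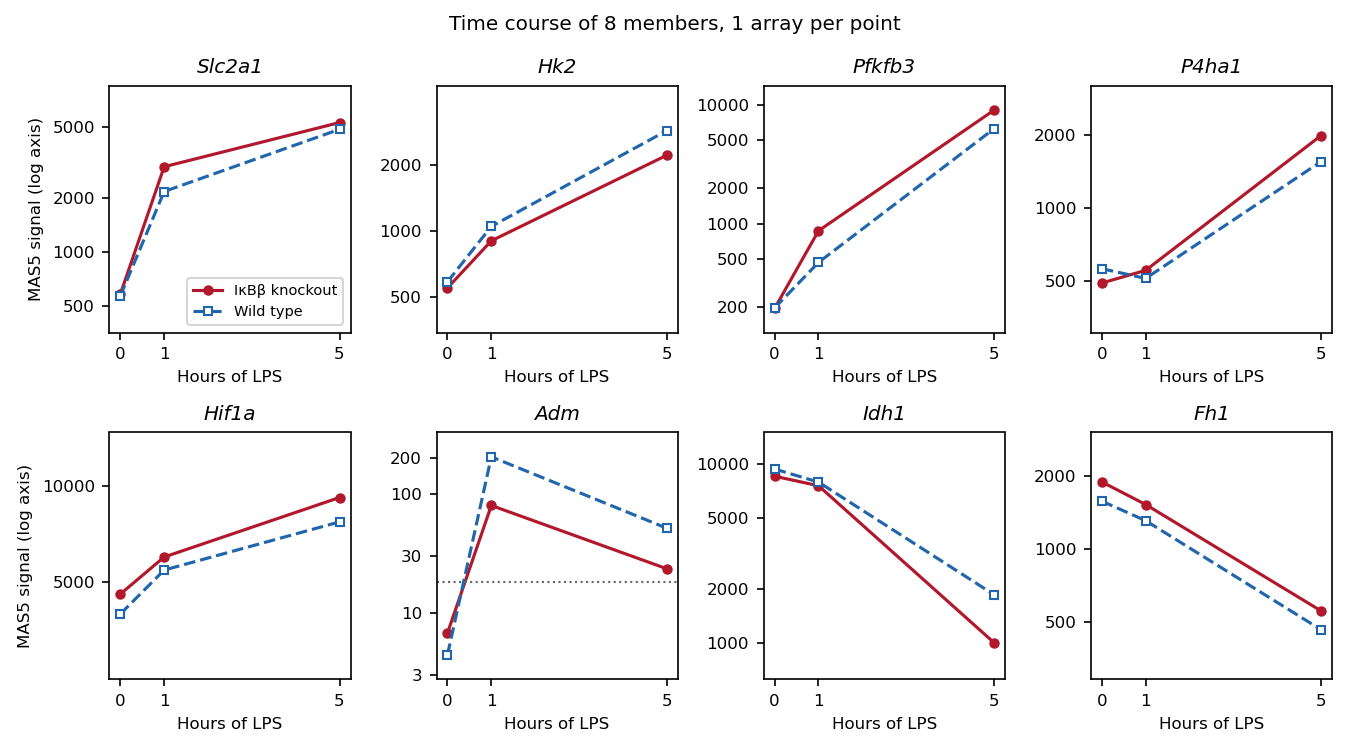
MAS5 signal (log axes with different ranges) of 8 genes at 0 h, 1 h and 5 h of LPS; red filled circles and solid lines are knockout, blue open squares and dashed lines wild type, 1 array per point, and the dotted line is the floor. Slc2a1, Hk2 and Pfkfb3 climbed at both steps, P4ha1 after 1 h, Adm peaked at 1 h, and Idh1 and Fh1 dropped between 1 h and 5 h, with the same order of times in both genotypes except for P4ha1 at 1 h.

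Beyond the 35, a further 82 genes of the same pathways were listed and 53 tested. Of the 53, 6 were called higher and 1 lower at 1 h, beside 5.42% and 5.91% of all genes. After 5 h 10 were higher and 33 lower, beside the 19.5% higher and 54.0% lower of all genes. The 5 h counts were 15 and 25 with quantile normalization, where 1975 of all 7509 genes were higher and 3059 lower. With median centring they were 21 and 16, where 2925 of all 7509 genes were higher and 2042 lower. The counts by role that follow are small and stand against the same shares. Among the 9 glycolysis genes, 3 were higher and 5 lower at 5 h (4 and 2 after median centring). The lactate exporters Slc16a1 (2.86, limma adjusted p = 0.000448) and Slc16a3 (2.17, limma adjusted p = 0.000557) rose. The glucose transporter gene Slc2a3 fell (−3.43, limma adjusted p = 0.000518), with its wild-type 5 h signal under the floor. Slc2a3 passed the filter through the 0 h and 1 h arrays alone, so the filter favoured its call. Slc16a3 read 497, 1209 and 2453 in knockout, against 533, 1011 and 2184 in wild type, and was also called at 1 h (1.10, limma adjusted p = 0.0199). The enolase gene Eno2 rose at 1 h (1.64, limma adjusted p = 0.0381, and 1.59, limma adjusted p = 0.0665, after quantile normalization), with its wild-type 0 h signal under the floor. Eno2 passed the filter through the knockout 5 h array alone, so its call among the genes higher at 5 h was favoured by the filter. Bpgm, which makes 2,3-bisphosphoglycerate, fell at 5 h (−1.79, limma adjusted p = 0.0129, and −1.03, limma adjusted p = 0.051, after median centring). It passed the filter through the 0 h arrays and the wild-type 1 h array, so the filter favoured this call.

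At the entry of pyruvate to the mitochondrion, 2 of 7 further genes were higher and 5 lower at 5 h (2 and 1 after median centring). The kinase genes diverged: Pdk3 rose by 1.44 (limma adjusted p = 0.00507), and Pdk2 fell (−3.26, limma adjusted p = 0.000322), with its knockout 5 h signal under the floor. Pdk2 passed the filter through the 0 h and 1 h arrays alone, so the filter favoured its call. Dld, the shared lipoamide dehydrogenase subunit, rose by 0.62 (limma adjusted p = 0.00845), and Pdha1, the catalytic subunit of pyruvate dehydrogenase, fell by 0.96 (limma adjusted p = 0.00265) but stood at −0.20 after median centring (limma adjusted p = 0.248). Of 6 further pentose phosphate genes 1 was higher, Rpe (1.03, limma adjusted p = 0.00461), and 5 lower (2 after median centring), led by H6pd (−2.21, limma adjusted p = 0.000436) and Prps1 (−1.78, limma adjusted p = 0.0154; −1.02 and adjusted p = 0.0613 after median centring).

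Of 13 further TCA cycle and citrate genes, 11 were called lower at 5 h and 0 higher, as against 6 lower and 3 higher after median centring. Aco1, the cytosolic aconitase, read 1587, 1254 and 385 in knockout, against 1584, 1578 and 511 in wild type (−1.84, limma adjusted p = 0.000913). Idh3g, a regulatory subunit of the NAD-dependent isocitrate dehydrogenase, fell by 1.84 (limma adjusted p = 0.000798). Both were also called lower after median centring, at −1.08 and −1.07.

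Of 18 further HIF-related genes, 4 were called higher and 1 lower at 1 h, and 4 and 7 at 5 h (11 and 5 after median centring). Hilpda, a lipid droplet protein gene, read 168, 1964 and 931 in knockout, against 135, 1281 and 814 in wild type (3.40 at 1 h, limma adjusted p = 0.00215; 2.53 at 5 h, limma adjusted p = 0.000493). The transcription factor gene Bhlhe40 rose at 1 h (1.77, limma adjusted p = 0.0169) but was called lower at 5 h against 0 h (−1.78, limma adjusted p = 0.00219). After median centring that fall was −1.02 (limma adjusted p = 0.0114). Both 5 h signals of Bhlhe40 lay under the array medians, so the filter favoured the fall. Vhl, part of the ligase that degrades the alpha subunit, fell at 1 h (−0.92, limma adjusted p = 0.0199). At 5 h Vhl stood at 0.165 (limma adjusted p = 0.248), and at 0.93 after median centring (limma adjusted p = 0.00325). Plod2, a lysyl hydroxylase gene, read 82.2 in knockout and 73.0 in wild type at 5 h and lay under the floor on the other 4 arrays. It passed the filter through the 5 h arrays alone, so its call at 5 h was favoured by the filter. Mxi1 (−2.67, limma adjusted p = 0.000482) and the angiogenic factor gene Vegfa (−2.27, limma adjusted p = 0.00469), fell at 5 h, also after median centring (−1.91 and −1.51), so the genes of this list did not move in 1 direction.

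No gene of the list was called between knockout and wild type. Fitted over the 3 times in common, the genotype term of limma called 0 of the 30 higher and 0 lower, beside 0% and 0.0133% of all genes, and 3 of the 30 and 629 of all 7509 had an unadjusted p under 0.05. Nfkbib itself, at −5.02, was not called by this fit (limma adjusted p = 0.309), and the 1 gene called of all 7509 was the Y-linked Eif2s3y. The estimates ran from −0.83 for Adm (SE 0.30, limma adjusted p = 0.589) to 0.46 for Pfkfb3 (SE 0.20, limma adjusted p = 0.599), with a median of −0.01. The 95% interval was −1.65 to −0.01 for Adm, −0.08 to 1.00 for Pfkfb3 and −0.31 to 0.13 for Aldoa. The further 53 pathway genes gave 0 calls either way.

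**Figure D5:**
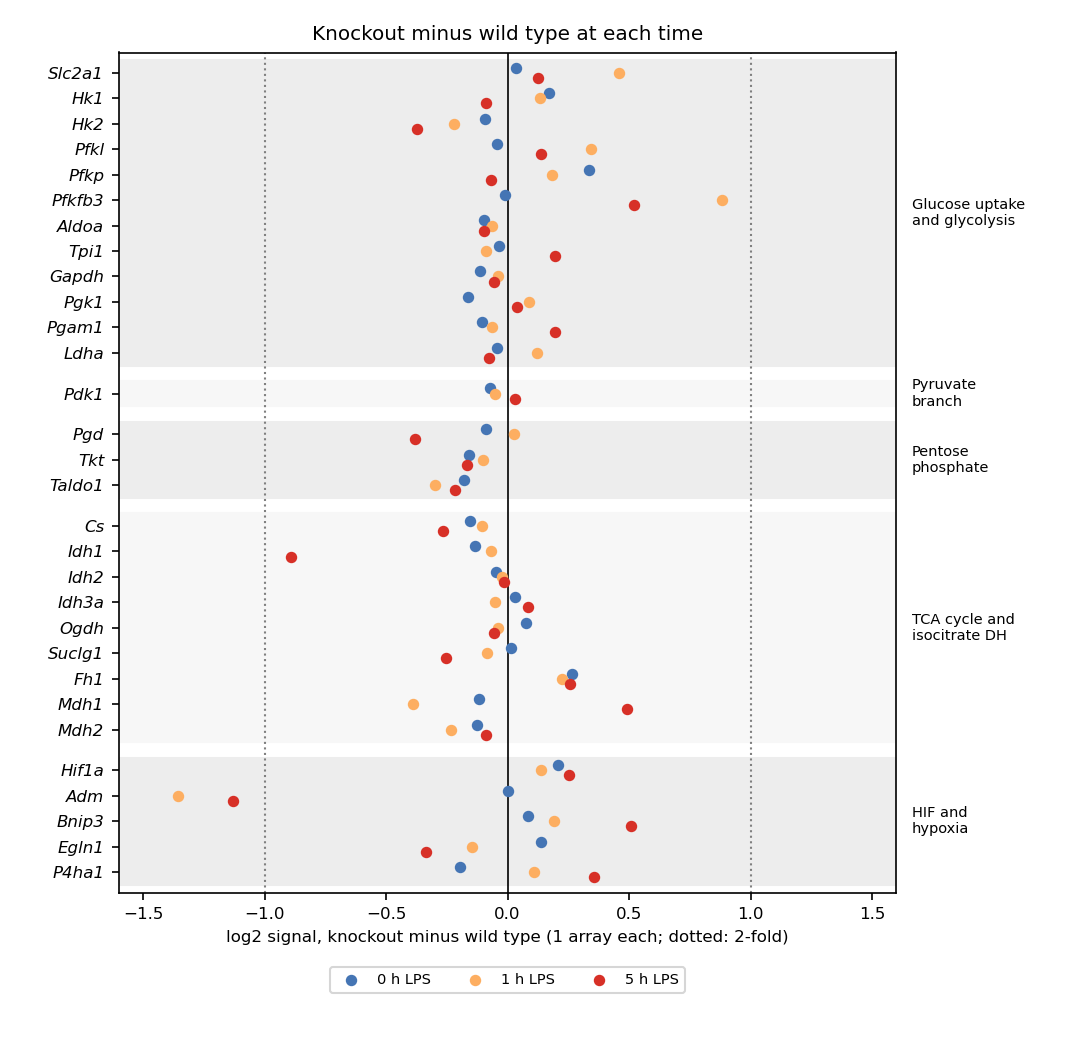
Log2 signal of knockout minus wild type at 0 h (blue), 1 h (orange) and 5 h (red) for the 30 tested genes, 1 array of each genotype per point and no test; dotted lines mark 2-fold. Adm at 1 h and 5 h are the points beyond 2-fold, and Pfkfb3 at 1 h and Idh1 at 5 h come next.

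At single times, Adm was the 1 gene of the 30 that stood beyond 2-fold: −1.36 at 1 h and −1.13 at 5 h, where 1.88% and 3.06% of all genes were lower in knockout by as much and 1.11% and 1.78% higher. The value at 1 h includes the wild-type array through which Adm passed the filter. Pfkfb3 was higher in knockout by 0.88 at 1 h (868 in knockout against 471 in wild type) and by 0.52 at 5 h (8972 in knockout against 6256 in wild type), after −0.01 at 0 h. Its second probe set was already higher in knockout at 0 h (115 in knockout against 94.6 in wild type). Idh1 was lower in knockout by 0.89 at 5 h (1010 in knockout against 1872 in wild type), and its second probe set read 758 in knockout and 1157 in wild type there. None of the 30 was beyond 2-fold at 0 h (0.906% of all genes higher and 1.13% lower), where the differences ran from −0.20 to 0.33. The SD over all genes was 0.35 at 0 h, 0.40 at 1 h and 0.48 at 5 h.

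Slc2a1, Fh1, Hif1a and Bnip3 were higher in knockout at 3 of 3 times (4 of 30; 13.9% of all genes), and Hk2, Aldoa, Gapdh, Tkt, Taldo1, Cs, Idh1, Idh2 and Mdh2 were lower at 3 of 3 (9 of 30; 20.2% of all genes). Another probe set of Slc2a1 read lower in knockout at 0 h (414 in knockout against 461 in wild type), so its side there depended on the probe set. Pgk1, the tested gene of this list on the X chromosome, differed by −0.16, 0.09 and 0.04 at 0 h, 1 h and 5 h. The LPS changes of the genotypes ran close together: over the 30 genes Pearson's r between the change in knockout and that in wild type was 0.909 at 1 h and 0.976 at 5 h (0.848 and 0.940 over all genes), with 27 and 30 genes of the same sign (79.8% and 90.8% of all genes). These values are across genes on shared arrays, and genes are not independent replicates.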

How the data were processed

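RNA of 6 macrophage cultures, 1 for each genotype and time, was measured on Affymetrix Mouse Genome 430A 2.0 arrays. The values are intensity: MAS5 signals on a linear scale, computed by the authors per the submitters' processing notes. No version or scaling target is stated. Signals were used as deposited. Those under 18.2, the 25th percentile, were raised to it before log2, so a change within a genotype from or to this floor is a bound.

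A probe set was used if it had 1 gene symbol in the platform annotation (20393 of 22690) and lay above the median signal of 1 or more arrays. The brightest set by mean signal stood for its gene, and control probe sets were left out except those of Gapdh. LPS and genotype effects were fitted with limma 3.58.1 in R 4.3.3 (additive model, 2 residual degrees of freedom, prior 2.18) over 7509 genes, with Benjamini-Hochberg adjustment at 0.05. With 1 array per group the number of arrays limits the precision.

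All 35 genes and the other pathway and marker lists were chosen with earlier results of these data known. Of the other pathway genes, those named have the 2 largest changes each way among called genes of their list. Alternatives were quantile normalization, median centring, a floor at the 10th percentile, no filter, the mean of probe sets and leaving out each array. The counts of further pathway genes under other scalings were added after seeing the data. Promoters come from a RefSeq table of GRCm38.p6, taking the start nearest the gene's 5′ end, and those printed belong to the called genes with the largest change at 1 h or 5 h in each role; the design also foresaw those of isozymes, which are not printed.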

Additional observations from a re-analysis of the deposited data

Results flagged for a closer look

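For 3 genes the LPS change at 1 h ran in opposite directions on the arrays of the genotypes, and the difference was not tested. Pfkl changed by 0.05 in knockout and −0.34 in wild type, a difference of 0.38. Pgk1 changed by 0.04 in knockout and −0.22 in wild type, a difference of 0.25. P4ha1 changed by 0.17 in knockout and −0.13 in wild type, a difference of 0.31. Over all genes the SD of this difference was 0.44 at 1 h, so each lies within the spread of genes between these arrays. At 5 h all 3 genes rose in both genotypes, and no gene of the 30 ran in opposite directions. Other probe sets of the 3 genes did not repeat the directions above at 1 h. That of Pfkl fell in knockout (810 to 781) and wild type (888 to 740), and that of P4ha1 rose in knockout (275 to 318) and wild type (219 to 268). A further set of Pgk1 rose in knockout (1345 to 1478) and wild type (1407 to 1840). Its remaining set went from 4803 to 4795 in knockout and from 5275 to 5591 in wild type.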

How the results depend on the processing

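The counts of genes called at 5 h against 0 h were 12 higher and 12 lower, and the higher count was 11 to 18 under all alternatives run. Under median centring 3 were lower at 5 h against 0 h and 4 at 5 h against 1 h (9 at the deposited scale). Without each array in turn the counts were 0 to 3 higher at 1 h (4 with all arrays), 8 to 12 lower at 5 h against 0 h, and 3 to 8 lower at 5 h against 1 h. Without the expression filter 0 were higher at 1 h. Median centring raised the median of all genes from −0.18 to −0.00 at 1 h and from −0.57 to 0.19 at 5 h, and the share of calls that were higher from 47.8% to 66.3% at 1 h (56.1% after quantile normalization), from 26.5% to 58.9% at 5 h (39.2%), and from 29.0% to 60.1% between 1 h and 5 h (41.9%).

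The genes that changed sign under median centring at 5 h against 0 h were Aldoa (0.30), Pdk1 (0.58), Pgd (0.22), Tkt (0.076), Taldo1 (0.031), Cs (0.54), Idh3a (0.24) and Egln1 (0.48). Those that did so at 5 h against 1 h were Aldoa (0.40), Pdk1 (0.57), Pgd (0.31), Tkt (0.17), Taldo1 (0.073), Cs (0.46), Idh3a (0.29), Mdh1 (0.003), Mdh2 (0.054) and Egln1 (0.54). This follows from the lower array medians at 5 h, which that scaling sets equal. The genotype difference gave 0 of the 30 genes under every alternative run, in a design of 1 array per group. No paired analysis was possible because there is 1 array per group, with no replicate number to use as a block beyond the genotype and time terms that the model already holds. Signals near the floor (Adm, Egln3) are limited by background.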
